A study of Mus musculus with 2 samples.

Results

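The genes described are those of the cytoplasmic ribosomal proteins, the proteins that build the large and the small subunit of the ribosome together with ribosomal RNA. They were chosen by symbol alone, as Rpl or Rps followed by a number, with Rpsa, Rplp0, Rplp1 and Rplp2. Symbols marked -ps, for pseudogenes, and Rps6k kinases were left out. The rule found 87 of the 27998 genes of the files. Of these, 77 are canonical ribosomal proteins, 46 of the large and 31 of the small subunit, and 10 carry the name of a paralog, a copy or a partner (Rpl10l, Rpl22l1, Rpl36al, Rpl39l, Rpl3l, Rpl6l, Rpl7l1, Rps27l, Rps27rt and Rps19bp1, the last of which encodes a protein that binds Rps19 and is not part of the ribosome). The rule kept Rpl6l, which is annotated as a processed pseudogene but whose symbol lacks the -ps mark. Genes such as Fau and Gnb2l1, which encode ribosomal or ribosome-bound proteins under other symbols, lie outside the rule and are given apart.

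Transcripts of single epidermal cells were sequenced from 2 male C57BL/6J mice with a knockout (KO) of Chrm3, the M3 muscarinic acetylcholine receptor, at postnatal day 0, and each animal, called KO mouse 1 or KO mouse 2, gave 1 library. Both mice carried the same genotype and received no treatment that the labels name. Skin was kept overnight in a buffer that separates the epidermis, and the cells were filtered and freed of dead cells before loading. Wild-type cells were not analysed here. Every value is therefore a level in KO epidermis and no effect of the genotype was tested.

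Every ribosome contains 1 copy of nearly all of its proteins, and the genes for these proteins are expressed in every cell. Many of their mRNAs begin with a C followed by a run of pyrimidines, the 5′ terminal oligopyrimidine (TOP) element, through which the mTOR pathway controls how strongly they are translated. In the epidermis, basal keratinocytes (KCs) of the interfollicular epidermis (IFE) divide, leave the basal layer, enlarge and fill with keratins and envelope proteins, and at the end lose their nucleus.

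The first 30 bases around annotated starts show what a TOP start looks like and which of the genes that the comparisons turn on carry one. Sequences are from RefSeq on GRCm38.p6, written from 5′ to 3′ on the strand of the transcript, with the annotated first base at the middle, and the capitals mark a C followed by at least 4 bases that are each C or T, where that run begins within 5 bases of the start. Rps27 is given as a canonical gene with such a run exactly at its start, Rps26 as a small subunit gene that varied between cell types, and Rpl22l1, Rps27l, Rpl36al and Rpl7l1 as paralogs among those that changed with differentiation.
Rps27 (chr3:90213634-90213663, minus strand): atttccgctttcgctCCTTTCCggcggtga
Rps26 (chr10:128626492-128626521, minus strand): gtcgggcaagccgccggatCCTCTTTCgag
Rpl22l1 (chr3:28805493-28805522, plus strand): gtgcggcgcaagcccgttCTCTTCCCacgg
Rps27l (chr9:66946071-66946100, plus strand): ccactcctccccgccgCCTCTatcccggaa
Rpl36al (chr12:69184053-69184082, minus strand): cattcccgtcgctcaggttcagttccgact
Rpl7l1 (chr17:46782642-46782671, minus strand): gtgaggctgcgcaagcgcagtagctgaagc
These windows overlap the annotated first exon of each gene. The windows of Rpl36al and Rpl7l1 hold no such run, whereas those of Rpl22l1 and of 1 of the 2 annotated starts of Rps27l do. A window was found for 57 of the 77 canonical genes, and 27 of them (47.4%) held the run, against 3898 of the 17999 genes of the files that have a window (21.7%) and 3 of the 9 paralogs and partners that have one. The motif CCGGAAG, the core that ETS factors bind, was searched on both strands in the 300 bases from 250 before to 50 after the start and was found for 24 of the 57 canonical genes (42.1%) against 12.5% of all genes with a window. A match is a string of letters and not a measured start or binding site.

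KO mouse 1 had 10816 barcodes and 109756784 UMIs (unique molecular identifiers, each counting 1 captured transcript), and KO mouse 2 had 15867 barcodes and 166441732 UMIs. With 900 to 7700 genes and under 10% mitochondrial UMIs, 7607 and 11881 cells were kept, with medians of 10480 and 10577 UMIs. In these cells 13 and 19 UMIs of Chrm3 were counted. The libraries shared 127 barcodes, of which 34 were kept in both. Clusters were formed without the ribosomal protein genes and named from marker genes. Of 23 clusters of all cells 1 stayed unnamed, with 1219 cells, and of 15 clusters of the IFE 7 did. These 7 held 821, 647, 546, 430, 395, 128 and 64 cells, which the values by IFE stage leave out. The leading genes were Cyp2g1, Scd1 and Cidea in the sebaceous cluster, Pmel, Dct and Ptgds in the larger melanocyte cluster, Cd3g, Cd3d and Nkg7 in the T cell cluster and Ccer2, Krt8 and Isl1 in the Merkel cluster. The Langerhans cluster was led by Cd74, Tyrobp and C1qb, of which the C1q genes are also known from macrophages. The dermal cluster was led by Ebf1, Rspo3 and Meg3, with 1 marker of its list among its 10 leading genes. The hair follicle name pools several clusters, led by Shh, Sfrp1, Krt28 or Krt79. The cluster led by Sfrp1, with 1596 cells, had 1 marker of the list among its 10 leading genes. Its mean log2 enrichment over the list was −0.52, against 0.26 to 0.78 in the others. Among the IFE clusters, transition 2 was led by Krt79, Krt77 and Sepp1. Its 10 leading genes held 2 markers of its own list and 1 of the hair follicle list.

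Over the cells kept, the canonical genes took 27.9% of all UMIs in KO mouse 1 and 29.3% in KO mouse 2. In barcodes outside the filter the share was lower, at 11.1% and 12.9% in those with 10% or more mitochondrial UMIs. Levels of single genes, as CPM (counts scaled to a common library total), spanned more than an order of magnitude. Among the highest was Rpl13 of the large subunit, with 7369 CPM in KO mouse 1 and 7249 CPM in KO mouse 2. Other high genes were Rpl32 of the large subunit, Rps3a1 of the small subunit and Rps27a, whose protein is made as a fusion to ubiquitin. Of the 77 canonical genes, 72 exceeded 1000 CPM in both mice. The other 5 were Rpl27 (304 and 347 CPM), Rpl15 (456 and 479.8), Rpl23a (660.1 and 656), Rpl31 (673 and 798) and Rps28 (618 and 854), each in KO mouse 1 and KO mouse 2. Ribosomal proteins have many near-identical pseudogene copies, and reads that match several annotated genes are not counted. A level compared between genes is therefore uncertain where copies take up reads.

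The paralogs were lower than nearly all canonical genes. Rpl36al, a near copy of Rpl36a, stood at 600.1 and 689 CPM, Rpl22l1, the paralog of Rpl22, at 554 and 549, and Rps27l, the paralog of Rps27 and a target of p53, at 377 and 418. Rpl7l1, a paralog of Rpl7 found in the nucleolus, stood at 76.2 and 79.5 CPM. Rps19bp1, Rps27rt and Rpl6l were between 44.5 and 72.3 CPM in both mice.

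The 3 paralogs known from testis or striated muscle, Rpl39l, Rpl3l and Rpl10l, were at or near 0. Rpl39l, a paralog of Rpl39, had 15 UMIs in KO mouse 1 and 18 in KO mouse 2. Of these, 5 and 12 came from the dermal cells, which were only 39 and 68 cells, and this is 24.1 CPM (exact 95% Poisson interval 7.84 to 56.3) and 32.0 CPM (16.5 to 55.9). In basal IFE cells 2 UMIs and 1 UMI were counted, which is 0.0967 CPM (0.0117 to 0.349) and 0.0269 CPM (0.000681 to 0.15). The intervals of the dermal and the basal cells lay apart in both mice. In T cells 4 UMIs were counted in KO mouse 1 and 0 in KO mouse 2, where the 3 counts taken as the limit of a count of 0 are 7.26 CPM and the exact 95% upper bound is 8.93 CPM. Rpl3l, a paralog of Rpl3 known from muscle, had 6 and 15 UMIs, of which Langerhans cells gave 4 (2.53 CPM, 0.69 to 6.48) and 7 (3.255 CPM, 1.31 to 6.71). Basal IFE cells gave 0 and 1 of them. Rpl10l, known from testis, was at 0 in both mice. Intervals and limits cover counting error only.

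The summed share of the canonical genes fell into the same order of IFE stages in both mice, apart from transition 2 and terminally differentiated KCs, which changed places. It was highest in the basal KCs. In basal 2 it was 31.4% in KO mouse 1 and 32.9% in KO mouse 2, in basal 1 30.9% and 32.0%, and in basal aberrant KCs, a basal subtype led by genes of DNA replication, 28.7% and 29.9%. It was lower than this in dividing KCs and in the transition and differentiated stages. Basal proliferating KCs stood at 25.3% and 26.7%, transition 1 at 28.2% and 29.3%, and transition 2 at 24.9% and 25.8%. The lowest share of all UMIs was that of differentiated KCs, at 23.4% and 23.9%, and terminally differentiated KCs stood at 24.4% and 26.1%. In these sums deep cells weigh more. The median share of single cells was 23.9% and 23.9% in differentiated and 22.0% and 25.6% in terminally differentiated KCs. By that median, terminally differentiated KCs were the lower of these stages in KO mouse 1. Their share correlated with the UMIs of the cell (Spearman 0.65 in KO mouse 1 and 0.46 in KO mouse 2). Differentiated KCs were 7.79 percentage points below the mean of basal 1 and basal 2 in KO mouse 1 and 8.56 in KO mouse 2, a mean difference of −8.18 ± 0.55 (SD, n = 2). Shares are given without a test, since the same 2 mice supply both stages and an exact test over 2 paired differences cannot give a two-sided p below 0.5.

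The lower share was not a lower number of ribosomal protein UMIs. A differentiated KC held on average 6847 ribosomal protein UMIs in KO mouse 1 and 7077 in KO mouse 2, against 3442 and 3513 in basal 1 and 2544 and 2636 in basal 2. The median total was 25014 and 24836 UMIs in differentiated KCs against 10572.5 and 10712 in basal 1. The counts of ribosomal protein transcripts per cell were therefore higher in differentiated KCs, and the UMIs of other genes higher by more. The genes of a list of abundant keratin and envelope genes took 15.4% and 15.7% of the UMIs of differentiated KCs and 5.23% and 5.52% in basal 1. With these genes left out of the total, the mean difference of the shares was −5.33 percentage points. Differentiated KCs, at 27.6% and 28.4%, were then no longer the lowest stage. Terminally differentiated KCs (26.4% and 27.9%) and basal proliferating KCs (26.2% and 27.6%) lay below them in both mice.

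**Figure D1:**
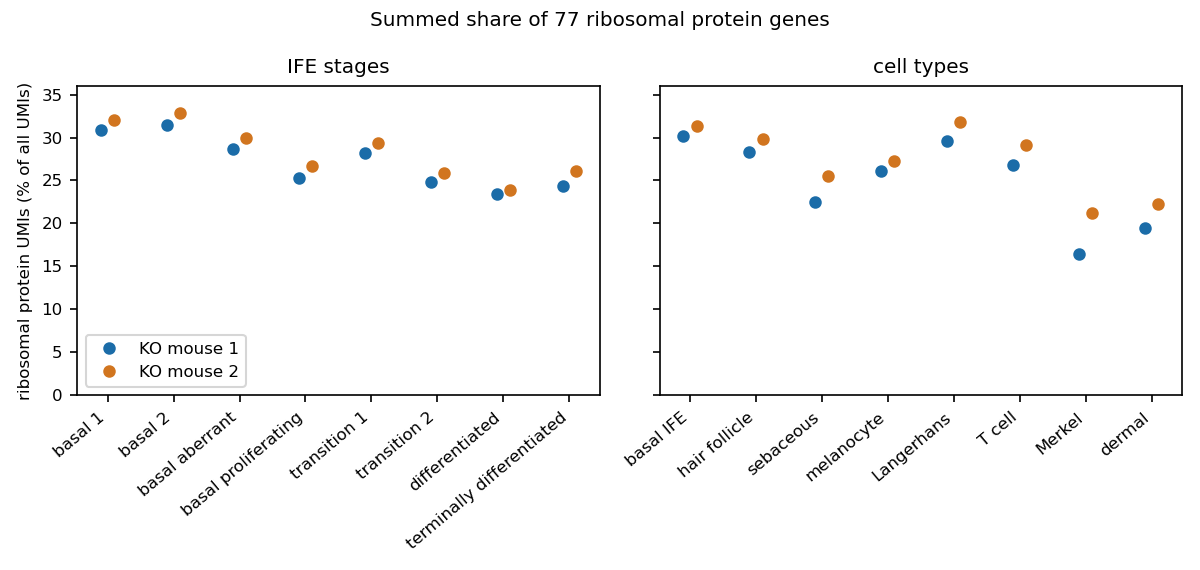
Percent of all UMIs that belong to the 77 canonical ribosomal protein genes, by IFE stage (left) and cell type (right), with 1 point per mouse. The share was highest in basal 1 and basal 2 (30.9% to 32.9%) and lowest among the stages in differentiated KCs (23.4% and 23.9%), and among cell types it was lowest in Merkel cells (16.4% and 21.2%).

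Among cell types, Langerhans cells had a share close to that of the basal IFE, with 29.6% and 31.8% against 30.1% and 31.3%. Hair follicle cells stood at 28.3% and 29.8%, T cells at 26.8% and 29.2% and melanocytes at 26.1% and 27.2%. Sebaceous cells, at 22.5% and 25.5%, dermal cells, at 19.5% and 22.3%, and Merkel cells, at 16.4% and 21.2%, were lower than the basal IFE in both mice. The Merkel values rest on 18 and 19 cells. These shares are of summed UMIs, and the median share of single cells differed from them. It was lower in Merkel cells (13.2% and 16.2%) and dermal cells (17.4% and 19.4%). In sebaceous cells (25.3% and 27.4%) and in the basal IFE (30.4% and 31.6%) it was higher. KO mouse 2 had the higher share in each of the 8 IFE stages and in these 8 cell types. The large subunit genes took more UMIs than the small subunit genes throughout, with 1.16 times as many in the basal IFE of both mice.

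For single genes, UMIs were summed per mouse and stage or cell type, and the sums were compared by edgeR's quasi-likelihood test. A gene is called when its Benjamini-Hochberg adjusted p over all genes tested was under 0.05. Fold changes are relative to the TMM library size, which assumes that most genes do not change, and levels beside them are CPM on that normalised scale. Since the ribosomal protein genes hold a large share of the UMIs, each comparison was also scaled to the ribosomal protein UMIs alone, which asks how a member changed against the other members and not whether they changed together. The median log2 fold change of all genes lay between −0.29 and 0.03 on the TMM scale, and between −0.36 (Langerhans cells) and 0.72 (Merkel cells) on the ribosomal protein scale. Genes named for that scale or for the block were chosen after their values were seen where they are not among the genes named by rule. As the 2 mice supply both sides of each comparison, counts with the mouse as a replicate block are given as well. In the comparisons below in which no canonical gene rose on the TMM scale, DESeq2 called none higher either, and at an unadjusted p under 0.05 edgeR had 0 higher in each except transition 1 against basal KCs, where it had 2.

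In differentiated against basal KCs, 2 of the 77 canonical genes rose and 37 fell, where 30.9% of all 11535 genes tested rose and 30.6% fell. With the mouse as a block, 7 rose and 55 fell (33.2% and 32.8% of all genes). The 7 were Rplp1, Rplp0, Rps2, Rpl14, Rpl31, Rpl38 and Rpl41. For some of them the direction depended on the TMM scale. In CPM without the TMM factors, Rplp1, Rpl38 and Rpl41 were higher in differentiated KCs than in basal 1 and basal 2 of each mouse. Rplp0, Rpl14 and Rpl31 were lower there than in both, and Rps2 was lower than in basal 1 and near basal 2. Against the ribosomal protein UMIs, 12 rose and 11 fell (36.7% and 22.9% of all genes), which counts changes against the other members. The median log2 fold change of the canonical genes was −0.18 and that of all genes −0.02.

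Among the stalk proteins, which recruit elongation factors to the ribosome, Rplp1 rose. Its normalised level was 5573 and 5991 CPM in basal 1 and 4617 and 5136 CPM in basal 2 in KO mouse 1 and KO mouse 2, and 7086 and 7234 CPM in differentiated KCs. Both differentiated values lay above all 4 basal values. The log2 fold change was 0.43 ± 0.07 (SE; edgeR adjusted p = 6.12e-05). Rplp0, the base of the stalk, had 8329 and 7641 CPM in differentiated KCs against 6728 to 7916 CPM in the basal sums, which overlap, and a log2 fold change of 0.14 (edgeR adjusted p = 0.0511). Rplp2, the partner of Rplp1 in the stalk, had a log2 fold change of −0.02 (edgeR adjusted p = 0.887). Of the stalk genes Rplp1 alone was called in this fit, and the difference between them was not tested. The other canonical gene that rose was Rps2, a small subunit protein near the entry of the mRNA, chosen after its values were seen. It had 6026 and 5399 CPM in differentiated KCs against 5503 and 5062 CPM in basal 1 and 4780.3 and 4471 CPM in basal 2, which overlap between the mice (log2 fold change 0.21, edgeR adjusted p = 0.0212). Without the TMM factors, Rps2 had 4897 and 4523 CPM in differentiated KCs, 5280 and 4785 in basal 1 and 4896 and 4493 in basal 2. These differentiated values lay below basal 1 and near basal 2 in both mice, so the rise of Rps2 depended on the scaling.

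The falls were led by Rps14, a protein of the platform of the small subunit. It stood at 6880.4 and 6770 CPM in basal 1 and 6923 and 6924 CPM in basal 2, and at 4638 and 4312 CPM in differentiated KCs. The groups did not overlap, and the spread within each was small against the gap. The log2 fold change was −0.62 ± 0.06 (SE; edgeR adjusted p = 1.23e-07), and −0.44 against the other members (edgeR adjusted p = 2.4e-05). Rpl17, a protein at the exit tunnel of the large subunit, had a log2 fold change of −0.50, Rpl13a, a large subunit protein that can also silence translation when released from the ribosome, −0.48, and Rpl6, another large subunit protein, −0.46. All 3 were lower in differentiated KCs of both mice than in every basal sum and stayed called against the other members.

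**Figure D2:**
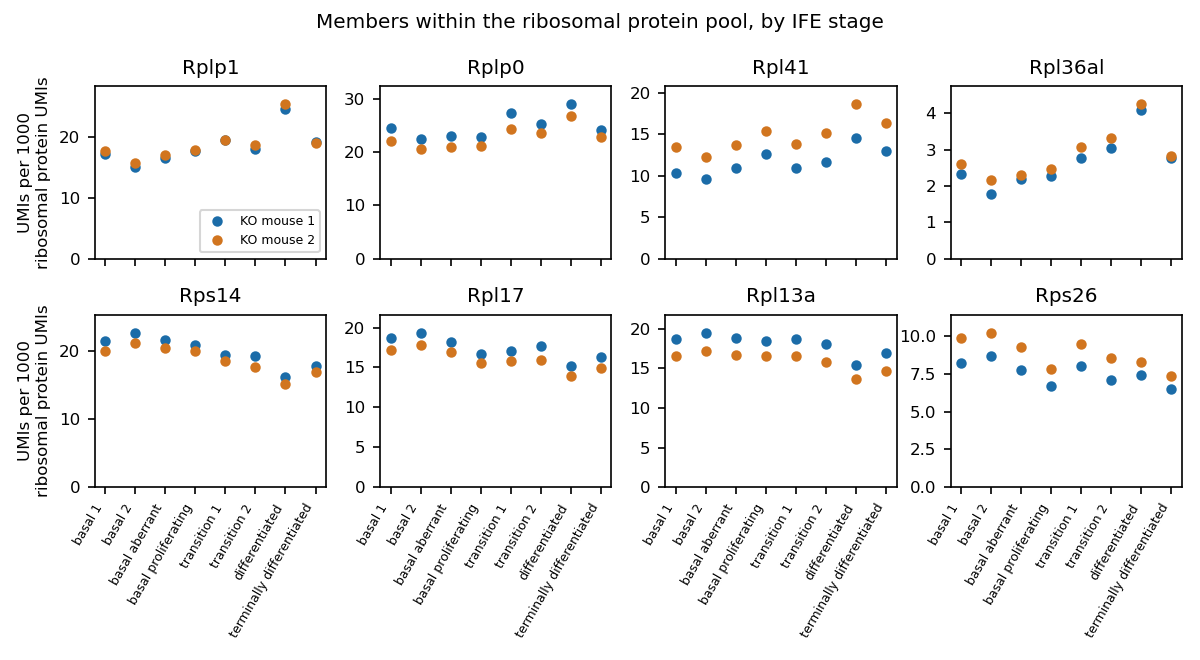
UMIs of 8 members per 1000 ribosomal protein UMIs, by IFE stage, with 1 point per mouse. Rplp1 reached 24.6 and 25.4 in differentiated KCs against 15.1 and 15.7 in basal 2, and Rps14 went from 22.6 and 21.1 in basal 2 to 16.1 and 15.1.

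Of the proteins that bind ribosomal RNA and also Mdm2, the inhibitor of p53, Rpl5 fell (log2 fold change −0.44, SE 0.08, edgeR adjusted p = 9.87e-05) and Rpl11 had −0.13 (edgeR adjusted p = 0.0701). Rps6, the ribosomal protein that S6 kinases phosphorylate, fell by 0.36 on the log2 scale (edgeR adjusted p = 0.000781). Rpsa, also known as the laminin receptor, had −0.01 (edgeR adjusted p = 0.893). Among the genes whose mutation changes the skin, tail or skeleton of mice, Rps19, Rpl24, Rps7 and Rpl27a fell, by between 0.18 and 0.35 on the log2 scale. Rps20 had −0.13 (edgeR adjusted p = 0.17) and Rpl38, whose mutation gives a short tail, 0.33 (edgeR adjusted p = 0.26). For Rpl38 the mice stood apart, with 1090 and 1046 CPM in the basal sums of KO mouse 1 and 1623 and 1528 CPM in those of KO mouse 2, and with the mouse as a block the adjusted p was 6.6e-06.

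Rpl36al, Rps27l, Rpl7l1 and Rpl22l1 rose, and none of their parent genes did. Rpl36al stood at 749 and 878 CPM in basal 1, 549 and 705 CPM in basal 2, and 1174 and 1210 CPM in differentiated KCs. The differentiated values lay above all basal values. The log2 fold change was 0.74 ± 0.11 (SE; edgeR adjusted p = 1.84e-05), against −0.04 (edgeR adjusted p = 0.827) for its parent gene Rpl36a. Reads of such near copies are uncertain where the counted part does not differ between them. Rps27l went from 317 to 434 CPM in the basal sums to 504 and 565 CPM (log2 fold change 0.51, edgeR adjusted p = 2.11e-05), against −0.51 (edgeR adjusted p = 0.0743) for Rps27. Rpl7l1 went from 57.2 to 60.6 CPM in the basal sums to 86.1 and 78.3 CPM (log2 fold change 0.47, edgeR adjusted p = 0.000145), whereas Rpl7 fell by 0.26 on the log2 scale (edgeR adjusted p = 0.00248). Rpl22l1 went from 477 to 550 CPM to 613 and 644 CPM (log2 fold change 0.30, edgeR adjusted p = 0.003), against −0.16 (edgeR adjusted p = 0.155) for Rpl22. The difference between a paralog and its parent was not tested.

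The fold changes of the paralogs differed between choices of cell depth (UMIs per cell) and of scaling, and the values under those choices follow. Differentiated KCs were the deepest of the stages. Among cells of 6000 to 15000 UMIs, where only KO mouse 2 gave a differentiated sum, the log2 fold changes were −0.08 for Rpl7l1, −0.12 for Rps27l, −0.15 for Rpl22l1, 0.20 for Rpl36al and 0.01 for Rplp1. With library size alone, which lowers the median of all genes to −0.27, Rpl36al (0.49), Rps27l (0.26), Rpl7l1 (0.22) and Rplp1 (0.18) stayed called and Rpl22l1 did not (0.05, edgeR adjusted p = 0.555). Whether cell depth sets these rises was not tested. Of the other paralogs, copies and partners, Rps19bp1 rose (0.36, edgeR adjusted p = 0.0405) and Rpl6l, the annotated pseudogene, fell (−0.40, edgeR adjusted p = 0.0202), both at levels from 37.6 to 79.5 CPM. Rps27rt, a near copy of Rps27, had −0.55 (edgeR adjusted p = 0.0514).

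The remaining genes of the named set were as follows. Rpl13 fell by 0.37, Rps3a1 by 0.29, Rps4x, a small subunit gene of the X chromosome, by 0.27, Rpl10, which joins the large subunit last, by 0.29 and Rpl3, near the peptidyl transferase centre, by 0.25 on the log2 scale. Rpl32, Rpl39, Rpl27, Rpl15, Rpl23a, Rpl31 and Rps28 had log2 fold changes from −0.19 to 0.12 and were not called. With the mouse as a block, Rpl31 was called higher and Rpl15 and Rps28 lower (edgeR adjusted p = 0.0491, 0.00866 and 0.00395), and so were Rplp0 higher and Rps20, Rpl11, Rpl22, Rps27 and Rps27rt lower, none of which was called without the block.

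The way from basal to differentiated KCs was split at transition 1, a stage which in the study has basal as well as differentiated markers at lower levels. In transition 1 against basal KCs, 0 canonical genes rose and 8 fell (18.6% and 16.5% of all genes). With the mouse as a block, 4 rose and 29 fell (22.7% and 20.3%), and scaled to the ribosomal protein UMIs, 3 rose and 0 fell (21.5% and 12.4%). These 3 were Rplp1, Rplp0 and Rps25, a small subunit protein. Rps14 led the falls here too, with 5779 and 5791 CPM in transition 1 against 6770 to 6924 CPM in the basal sums, and its log2 fold change was −0.25 ± 0.06 (SE; edgeR adjusted p = 0.00291). It was followed by Rps9, a small subunit protein near the entry of the mRNA (−0.23), Rpl17 (−0.22) and Rpl24 (−0.22). Rpl7l1 had already reached 82.3 and 83.5 CPM (log2 fold change 0.49, edgeR adjusted p = 0.000174), Rps27l 486 and 506 CPM (0.41, edgeR adjusted p = 0.000538) and Rpl36al 826 and 964 CPM (0.33, edgeR adjusted p = 0.0286). The Rpl36al value of KO mouse 1 in transition 1 lay below the basal 1 value of KO mouse 2.

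From transition 1 to differentiated KCs, 1 canonical gene rose and 10 fell (18.8% and 17.3% of all genes). The numbers were 3 and 30 with the mouse as a block (22.3% and 21.4%) and 1 and 1 scaled to the ribosomal protein UMIs (21.7% and 11.9%). Rplp1 was the gene that rose, from 5831 and 6123 CPM (log2 fold change 0.26, edgeR adjusted p = 0.0219). Rpl36al (0.41, edgeR adjusted p = 0.0185) and Rpl22l1 (0.38, edgeR adjusted p = 0.00343) rose as well, while Rpl7l1 (−0.01, edgeR adjusted p = 0.93) and Rps27l (0.11, edgeR adjusted p = 0.37) were not called. Among the lowest were Rpl13a (−0.38), Rps14 (−0.37) and Rpl17 (−0.27). These comparisons share their transition 1 sums with the one before, so their values are only set side by side.

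In terminally differentiated against differentiated KCs, the direction depended on the scaling. On the TMM scale 0 canonical genes rose and 51 fell (18.7% and 20.5% of all genes), with a median of −0.30, and with the mouse as a block 0 rose and 76 fell (20.4% and 22.6%). With library size alone, 15 rose and 1 fell (33.5% and 8.66%), and that scaling moved the median of all genes from −0.02 to 0.38. Scaled to the ribosomal protein UMIs, 1 rose and 3 fell (28% and 10.4%). The gene that rose there was Rpl6 (0.22). Rpl36al went from 1174 and 1210 CPM to 604 and 685 CPM (log2 fold change −0.88, edgeR adjusted p = 6.43e-05), and Rplp1 from 7086 and 7234 CPM to 4181 and 4595 CPM (−0.71, edgeR adjusted p = 6.82e-06). Rplp0 (−0.57) and Rps12, a small subunit protein (−0.53), followed. Against the other members Rpl36al (−0.57), Rplp1 (−0.39), Rplp0 (−0.25) and Rps12 (−0.21) kept their direction and their calls. The terminally differentiated sums hold 58 and 82 cells, and their median depth differed between the mice, with 6946.5 UMIs in KO mouse 1 and 15380.5 in KO mouse 2.

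Within the basal layer, few canonical genes were called between basal 2 and basal 1, and few of all genes were. In simulated counts this comparison recovered 14% of changes of 0.5 on the log2 scale. The changed genes there were drawn at random from all genes tested, so this value does not describe genes as high as these. Few calls alone do not show that the levels were alike. The count was 0 risen and 0 fallen of 77 (4.08% and 5.46% of all genes) by edgeR and 2 fallen by DESeq2. With the mouse as a block 0 rose and 6 fell (8.33% and 10.8%), and scaled to the ribosomal protein UMIs 0 rose and 0 fell (3.94% and 3.42%). At an unadjusted p under 0.05, edgeR had 0 higher and 5 lower, Rpl13, Rpl14, Rps2, Rplp0 and Rplp1. Of the paralogs, Rps27l was lower in basal 2, with 317 and 352 CPM against 402 and 434 CPM (log2 fold change −0.32, edgeR adjusted p = 0.0337).

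Basal proliferating KCs had all 77 canonical genes at negative fold changes, which are relative to the library size and are not counts per cell. A proliferating KC held on average 4444 ribosomal protein UMIs in KO mouse 1 and 4644 in KO mouse 2. The averages were 3442 and 3513 in basal 1 and 2544 and 2636 in basal 2. Of 77 genes 0 rose and 64 fell (19.4% and 15.7% of all genes), with a median of −0.44, and with the mouse as a block 0 rose and 77 fell (23.7% and 21.6%). Against the ribosomal protein UMIs, 2 rose and 1 fell (50.4% and 2.46%). Rps20 was among those that rose there (0.22), and the gene that fell was Rps26, a small subunit protein that contacts the mRNA upstream of the start codon. It stood at 1554 and 1940 CPM in proliferating KCs and at 2657 and 2664 CPM in the basal sums of KO mouse 1 and 3350 and 3344 CPM in those of KO mouse 2. The proliferating value of each mouse lay below all basal values. The log2 fold change was −0.78 ± 0.15 (SE; edgeR adjusted p = 0.000767) and −0.35 against the other members (edgeR adjusted p = 0.019). Rpl17 (−0.61), Rpl5 (−0.59) and Rpl10 (−0.58) followed.

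In basal aberrant against basal KCs, 0 canonical genes rose and 38 fell (8.6% and 4.36% of all genes), and with the mouse as a block 0 rose and 77 fell (12.7% and 10.6%). Scaled to the ribosomal protein UMIs, 0 rose and 0 fell (23.8% and 0.746%), and with library size alone the count was 0 as well. The changes were small, with a median log2 fold change of −0.24. The lowest called were Rpl3 (−0.32), Rpl10 (−0.31), Rpl27a (−0.30) and Rpl17 (−0.30).

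**Figure D3:**
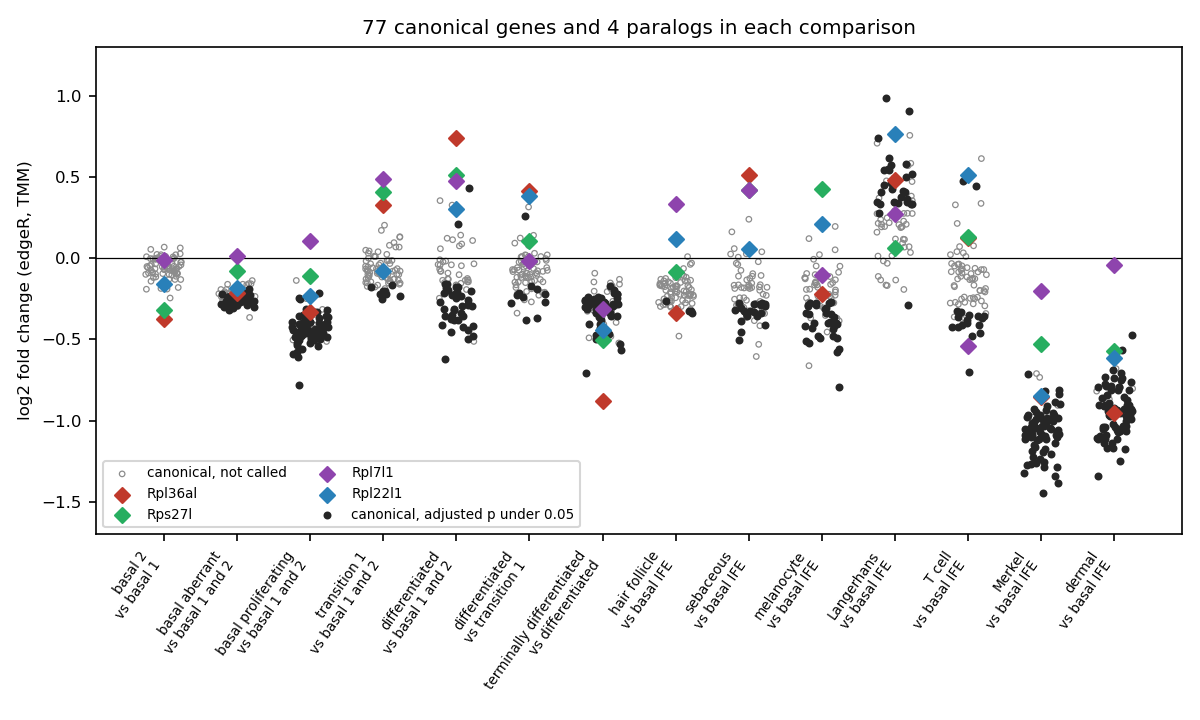
Log2 fold change of each canonical gene in each of the 14 comparisons (edgeR, TMM), with filled points for canonical genes of adjusted p under 0.05 and diamonds for 4 paralogs. In differentiated against basal KCs the 4 paralogs lie above 0 and most canonical genes below it, and in the Merkel and dermal comparisons all canonical genes lie below 0.

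Between cell types, the comparison was always with the basal IFE, that is the basal clusters not named as dividing, over 13968 genes tested. The name does not show that none of their cells divide. The basal sums are shared by the comparisons that follow. Hair follicle cells had the fewest canonical genes called among the 7 types compared on the TMM scale. Of the canonical genes 0 rose and 4 fell (21.1% and 15.9% of all genes), 0 and 35 with the mouse as a block (26% and 20.7%), and 0 and 0 scaled to the ribosomal protein UMIs (30.9% and 8.2%). Those that fell on the TMM scale include Rps14 (−0.33), Rpl13a (−0.32) and Rpl19 (−0.27). Rpl7l1 rose, from 65.7 and 69.3 CPM to 82.7 and 87.1 CPM (log2 fold change 0.33, edgeR adjusted p = 0.00813).

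In sebaceous cells, which fill with lipid, Rpl36al, Rps27l, Rpl7l1 and the Rps19 partner Rps19bp1 rose. Of the canonical genes 0 rose and 20 fell (23.9% and 24% of all genes), 1 and 47 with the mouse as a block (25.3% and 25.7%), and 5 and 1 scaled to the ribosomal protein UMIs (29.5% and 16.7%). The share of canonical genes that fell on the TMM scale is near that of all genes. The 5 that rose on the ribosomal protein scale were Rpl31, Rpl27, Rps25, Rpsa and Rps27a, from 0.27 to 0.48. Rpl36al rose from 635 and 746 CPM to 959 and 1008 CPM (log2 fold change 0.51, edgeR adjusted p = 0.0137), Rps27l by 0.42 (edgeR adjusted p = 0.025), Rpl7l1 by 0.42 (edgeR adjusted p = 0.0027) and Rps19bp1 by 0.73 (edgeR adjusted p = 0.000229). For each of these the sebaceous values of both mice lay above both basal values. Sebaceous cells were deeper, with medians of 18387 and 16814 UMIs against 9281.5 and 9473 in the basal IFE. The part of depth in these rises was not tested. The lowest canonical genes were Rpl13 (−0.50), Rps14 (−0.45), Rpl17 (−0.41) and Rplp0 (−0.38).

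In melanocytes 0 canonical genes rose and 32 fell (28.3% and 22.8% of all genes), 1 and 51 with the mouse as a block (31.3% and 25.3%), and 2 and 3 scaled to the ribosomal protein UMIs (39.9% and 14.2%). Rplp1 was among those that rose there (0.34), and those that fell were Rps26, Rps20 and Rpl21. Rps26 stood at 1441 and 1804 CPM against 2511 and 3118 CPM in the basal IFE (log2 fold change −0.79, edgeR adjusted p = 0.00711). It was lower in both mice, with no overlap. Rps20 (−0.58), whose mutation in mice darkens the skin, Rpl21 (−0.56), a large subunit protein, and Rpl13a (−0.52) followed, and Rps27l rose (0.42, edgeR adjusted p = 0.0203).

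Langerhans cells were the only type with more canonical genes called higher than lower on the TMM scale, where 28 rose and 1 fell (26.8% and 23.1% of all genes), and with the mouse as a block 54 and 1 (28.1% and 24.4%). With library size alone, 5 rose and 8 fell (20.8% and 34%), and that scaling moved the median of all genes from −0.06 to −0.35. Scaled to the ribosomal protein UMIs, 8 rose and 11 fell (20.1% and 32.5%). Rpl10 had 3625 and 3579 CPM against 1968 and 1880.5 CPM in the basal IFE (log2 fold change 0.90 ± 0.12, SE; edgeR adjusted p = 7.5e-07), 0.61 against the other members and 0.61 with library size alone. Both values lay above the basal values. Rps29, a short zinc-binding protein of the small subunit, had 5343 and 8603 CPM against 2815 and 4215 CPM (0.99, edgeR adjusted p = 0.0161), and with library size alone 0.69 (edgeR adjusted p = 0.0649). Rps3a1 was the gene that fell, from 7221 and 6974 CPM to 5732 and 5891 CPM (−0.29, edgeR adjusted p = 0.0409, and −0.58 against the other members). Rpl22l1 rose from 519.7 and 528 CPM to 773 and 1004 CPM (0.76, edgeR adjusted p = 6.56e-06).

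In T cells 2 canonical genes rose and 16 fell (17.1% and 15.5% of all genes), 5 and 32 with the mouse as a block (17.8% and 16.7%), and 6 and 4 scaled to the ribosomal protein UMIs (19.8% and 11.5%). Rpsa had 8199.5 and 8323 CPM against 5978 and 5934 CPM (log2 fold change 0.47, edgeR adjusted p = 0.00199), and Rpl10 2575 and 2663 CPM against 1968 and 1880.5 CPM (0.44, edgeR adjusted p = 0.00525). Neither overlapped between the groups. Rpl22l1 rose by 0.51 (edgeR adjusted p = 0.00178) while its parent Rpl22, known from T cell development, fell by 0.46 (edgeR adjusted p = 0.0422). Rps26 (−0.70), Rpl7l1 (−0.54) and Rps19 (−0.48), a gene of the small subunit, were the other lowest genes called. These sums hold 52 and 38 cells.

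**Figure D4:**
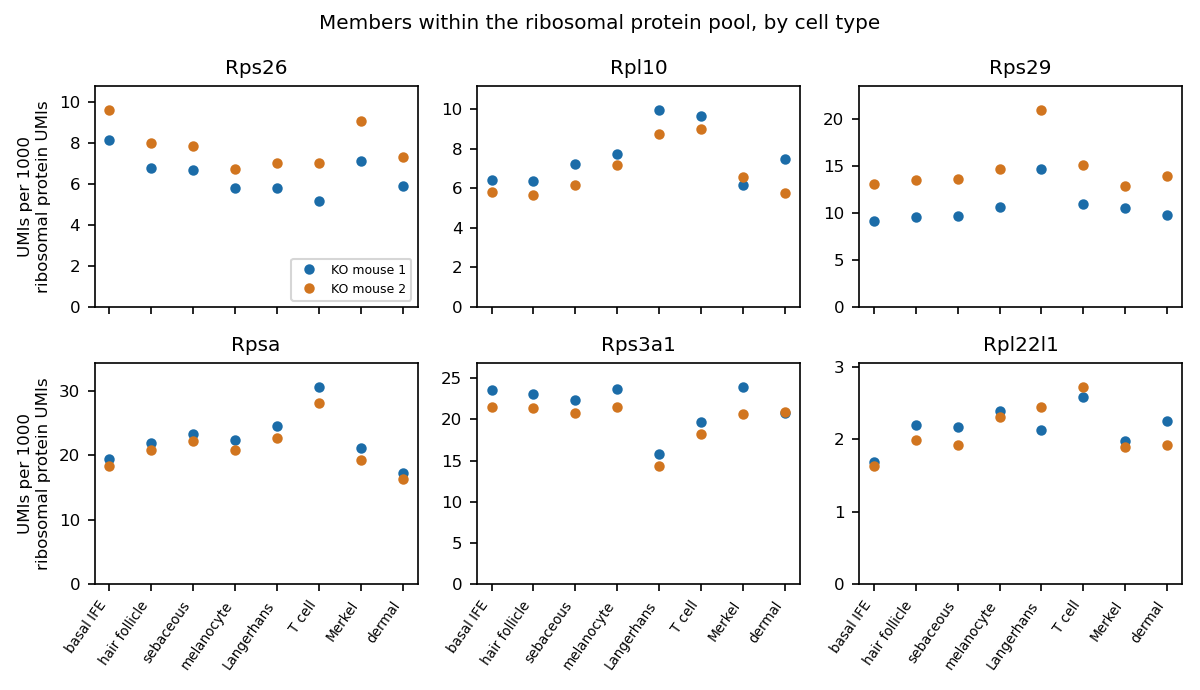
UMIs of 6 members per 1000 ribosomal protein UMIs, by cell type, with 1 point per mouse. Rpl10 stood at 9.96 and 8.72 in Langerhans cells and at 6.41 and 5.81 in the basal IFE, Rpsa was highest in T cells (30.7 and 28.1), and Rps29 differed between the mice in every type.

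In Merkel cells 0 canonical genes rose and 72 fell (7.04% and 6.44% of all genes), 0 and 77 with the mouse as a block (7.31% and 7.52%), and 0 and 3 scaled to the ribosomal protein UMIs (24.6% and 0.694%), Rps12 and Rps19 among them. Rps12 (−1.45) and Rps19 (−1.34) of the small subunit and Rpl23a (−1.32), at the exit of the tunnel, were among the lowest. Rps12 had 1225 and 2010 CPM against 4201 and 4638 CPM. In dermal cells 0 rose and 72 fell (12.4% and 11.8%), 0 and 77 with the mouse as a block (12.7% and 13.1%), and 2 and 1 scaled to the ribosomal protein UMIs (33.7% and 2.07%). Those that rose there were Rps23 (0.48) and Rpl24 (0.37), and Rplp0 fell (−0.31). Rps26 (−1.34) was the lowest on the TMM scale, followed by Rplp0 (−1.25) and by Rpl28 of the large subunit (−1.17). The medians of all genes in these comparisons were −0.29 and −0.16, so the medians of the canonical genes, −1.05 and −0.93, lie below them. The cells of both types were also shallow, with medians of 6339.5 and 6336 UMIs in Merkel cells and 4094 and 4337.5 in dermal cells against 9281.5 and 9473 in the basal IFE, and the part of depth in these falls was not tested.

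How evenly the set moved can be read from the UMIs of each gene per 1000 ribosomal protein UMIs. Over the 8 IFE stages, the range of a canonical gene, averaged over the mice, had a median of 0.18 on the log2 scale, from 0.06 to 0.70. In 3 genes it exceeded 0.5, and these were Rplp1 (0.70), Rpl41, the shortest ribosomal protein (0.60), and Rpl38 (0.52), all highest in differentiated and lowest in basal 2 KCs. Over the cell types the median range was 0.35, and 23 genes exceeded 0.5. Among the widest was Rpsa (0.80), highest in T cells and lowest in dermal cells. No canonical gene reached a range of 1 in either set. The ranges over cell types include the small Merkel, T cell and dermal sums, which have the fewest UMIs.

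The mice themselves differed in these genes, and the difference followed the coding length of the gene. The log2 difference in CPM between KO mouse 2 and KO mouse 1 exceeded 0.5 in 6 canonical genes, and the largest was that of Rps29 (0.56), with 2673 and 3941 CPM. Over the 77 genes its Spearman correlation with the coding length was −0.88 (Pearson with log2 length −0.83), and with the transcript length −0.44. The coding length and the length classes were taken after the value for the transcript length had been seen. The 9 genes with coding lengths under 300 bases had a median difference of 0.52, the 27 from 300 to 450 bases 0.15, the 19 from 450 to 600 −0.01, the 19 from 600 to 900 −0.04 and the 3 longest −0.10. The 95 other genes over 100 CPM with coding lengths under 300 bases had a median of 0.08, and over all 1238 such genes the Spearman correlation was −0.20. The same ordering was found within each stage, where the correlation lay between −0.84 and −0.88, and within each cell type, where it lay between −0.70 in Merkel cells and −0.88 in the basal IFE. The points are genes of 2 libraries and are not independent replicates. Mouse and library cannot be told apart, since each mouse gave 1 library.

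**Figure D5:**
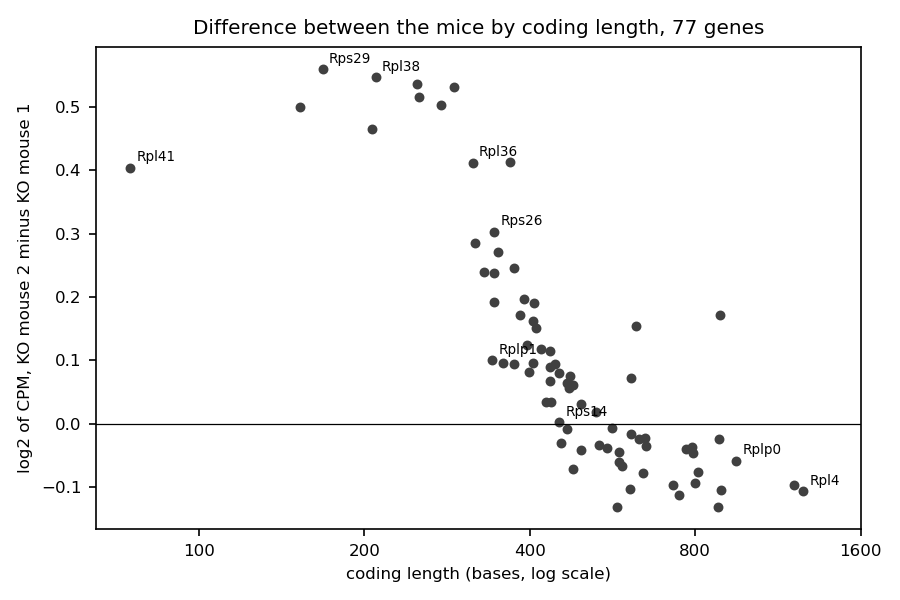
Log2 difference in CPM between KO mouse 2 and KO mouse 1 against coding length in bases (log axis), with 1 point per canonical gene. The 9 genes under 300 bases lie between 0.40 and 0.56 and the 3 of 900 bases or more lie below 0.

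Other genes of translation were counted from lists in differentiated against basal KCs. Of the ribosomal proteins outside the rule, Gnb2l1 (Rack1, a scaffold on the small subunit) fell by 0.43 and Fau by 0.21 on the log2 scale. The lists are to be read against all genes, of which 30.9% rose and 30.6% fell in this comparison. Differentiated KCs were the deepest of the stages, and the part of cell depth in the changes of these lists was not tested. Of 36 translation factors tested, 18 rose and 11 fell. Those that rose include Eif6, which keeps the subunits apart until the large one is ready (1.48), and Eef1d (1.21). Those that fell include the initiation factor subunits Eif3e (−0.78), Eif3h (−0.72) and Eif3f (−0.68) and the elongation factor Eef1a1 (−0.59). Of 33 genes of ribosome biogenesis, 25 rose and 2 fell, with Nhp2 (1.77), Ltv1 (1.46) and Nop10 (1.36) highest, and in transition 1 against basal KCs 27 rose and 1 fell (18.6% and 16.5% of all genes). Of 76 mitochondrial ribosomal protein genes, 41 rose and 11 fell. Among 16 genes of the mTOR pathway and of TOP mRNA control, 7 rose, such as Rps6kb2 (2.45), an S6 kinase, and Eif4ebp1 (2.00), a repressor of initiation, and 2 fell, Rictor (−0.67) and Tsc1 (−0.60). The median log2 fold change was 0.62 for the biogenesis genes, 0.29 for the mitochondrial ribosomal proteins and 0.23 for the translation factors, beside −0.18 for the canonical ribosomal proteins and −0.02 for all genes. In sebaceous cells 60 of the 76 mitochondrial ribosomal protein genes rose and 4 fell, and 24 of the 33 biogenesis genes rose and 1 fell (23.9% and 24% of all genes). In Langerhans cells 1 biogenesis gene rose and 17 fell (26.8% and 23.1% of all genes).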

How the data were processed

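Libraries were 10x Chromium 3′ single-cell libraries, 1 per mouse. The deposited values are UMI counts per gene and barcode, which the authors made with Cell Ranger 3.0.2 on mm10. The labels and the study's methods name different chemistry versions. The annotation version is not given in the sources used here. No replicate culture exists beyond the 2 mice. Without the replicate block, p-values measure the spread between these 2 libraries within stages or types, and sums of the same mouse are treated as independent. With the mouse as a block, p-values measure the spread that remains once a constant difference between the mice is removed.

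Barcodes were kept as cells at 900 to 7700 detected genes, with mitochondrial genes under 10% of the UMIs. Doublets were called (Scrublet in scanpy 1.11.5; 2.16% and 4.21% of cells) and kept, with their removal as an alternative. Cells were clustered in Seurat 5.3.0 (2000 variable genes, 30 dimensions, resolution 0.8) with 254 translation genes kept out of the variable genes, and IFE cells were clustered again. UMIs were summed per mouse and cluster name and fitted with edgeR 4.0.16 (quasi-likelihood, TMM, R 4.3.3) over all stages or all types together, over 11535 and 13968 genes, with Benjamini-Hochberg adjustment and a threshold of 0.05. The fit was tested on simulated counts that held no difference between the mice. The changed genes were drawn at random from all genes tested, so the values do not describe the high ribosomal protein genes. In these counts the fit missed most changes of 0.5 on the log2 scale. It recovered from 0% of them in the Merkel and dermal sums to 26% in transition 1 and basal aberrant KCs. In most comparisons the share of false calls was above the threshold. It ranged from 0% in Merkel cells to 20.9% in hair follicle cells and was 10.2% in differentiated against basal KCs. DESeq2 1.42.0, other scalings, filters, clusterings and the mouse as a block were alternatives.

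The members and lists were chosen with earlier results of these data known. The rule for named genes took up to 4 called members with the highest and 4 with the lowest log2 fold change per comparison, paralogs with their parents, genes of mouse mutants, stalk genes, Rpsa, Rps6, Rpl5, Rpl11 and the 5 highest and 5 lowest members by level. Outside differentiated against basal KCs, genes named for reasons other than their fold change are not repeated. Same-numbered sums came from the same mouse, and the mouse differences of stages correlated above 0.1 in 28 of 28 pairs (0.15 to 0.67) and those of types in 54 of 66. Some genes that the rule names are not reported here.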

Additional observations from a re-analysis of the deposited data

How the results depend on the processing

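All counts here are of called canonical genes, out of 77. With 1 library per mouse, differences in handling and between animals cannot be told apart. With 2 KO mice and no wild type, an effect of the genotype could not be tested. Without either mouse no replicates of a stage remain, so only values with no test can be had, and the difference of the summed share then lay between −8.56 and −7.79 percentage points. It was −8.83 without mitochondrial genes, −5.33 without the abundant differentiation genes and −6.93 with the ribosomal protein genes among the variable genes. Depth limits the Merkel, dermal, T cell and terminally differentiated sums most. The 5% mitochondrial limit left too few basal 1 cells for a sum from each mouse. At resolution 1.2 no cluster took the name differentiated or transition 2. An unnamed cluster of 167 cells there was led by Ly6g6c, Flg and Serpinb12, and 1 of 390 cells led by Krt79 and Krt16 was named transition 1. With the ribosomal protein genes in the clustering, no cluster took the name transition 2. Comparisons with the missing names have no value there. Scaling to the ribosomal protein UMIs holds the sum of the members fixed, so there the members cannot all move together. That scaling shifts all other genes too, so the shares of all genes beside those counts are shifted as well. The cause of the other changes listed next was not tested.

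In brackets stand the called genes that were higher, the others being lower, and the share of all genes called under that setting. With the mouse as a replicate block, counts were 33 in transition 1 (4 higher, 43%), 62 in differentiated against basal (7 higher, 65.9%), 33 in differentiated against transition 1 (3 higher, 43.7%), 6 in basal 2 (0 higher, 19.1%), 77 in basal aberrant (0 higher, 23.3%), 35 in hair follicle (0 higher, 46.7%), 48 in sebaceous (1 higher, 51%), 52 in melanocyte (1 higher, 56.6%), 55 in Langerhans (54 higher, 52.5%) and 37 in T cells (5 higher, 34.4%). In terminally differentiated, proliferating, Merkel and dermal cells the block moved the count by less than 1.5 times. Scaled to the ribosomal protein UMIs, counts were 3 in transition 1 (3 higher, 33.9%), 23 in differentiated against basal (12 higher, 59.6%), 3 in proliferating (2 higher, 52.9%), 6 in sebaceous (5 higher, 46.2%), 19 in Langerhans (8 higher, 52.6%), 10 in T cells (6 higher, 31.2%) and 3 in dermal (2 higher, 35.7%), each with the balance of directions turned, and 2 in differentiated against transition 1 (1 higher, 33.6%), 4 in terminally differentiated (1 higher, 38.4%), 0 in basal aberrant (0 higher, 24.5%), 0 in hair follicle (0 higher, 39.1%), 5 in melanocyte (2 higher, 54.1%) and 3 in Merkel (0 higher, 25.3%). With that scaling and the replicate block together, an alternative added after the data were seen, the balance turned with 28 in proliferating (16 higher, 61.8%), 3 in basal aberrant (2 higher, 39.3%), 5 in hair follicle (3 higher, 52.8%), 21 in sebaceous (13 higher, 50.9%), 35 in melanocyte (20 higher, 61.5%), 19 in Merkel (10 higher, 26.6%) and 26 in dermal (14 higher, 37.9%), and counts were 31 in transition 1 (14 higher, 43.4%), 36 in differentiated against transition 1 (16 higher, 42.9%), 32 in terminally differentiated (16 higher, 43.1%), 9 in basal 2 (3 higher, 19.4%) and 31 in T cells (11 higher, 33.8%).

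With library size alone, the balance turned with 16 in terminally differentiated (15 higher, 42.2%) and 13 in Langerhans (5 higher, 54.7%), and counts were 24 in transition 1 (0 higher, 34.6%), 59 in differentiated against basal (1 higher, 64.3%), 52 in differentiated against transition 1 (0 higher, 41.3%), 0 in basal aberrant (0 higher, 15.4%), 0 in hair follicle (0 higher, 40.1%), 44 in sebaceous (0 higher, 48.5%) and 21 in melanocyte (0 higher, 51.6%). In cells of 6000 to 15000 UMIs the differentiated sum is 1 library, assumed to vary like the other sums, and there the balance turned with 5 in terminally differentiated (5 higher, 4.16%) and the count was 50 in differentiated against transition 1 (0 higher, 5.36%). The other counts in these cells were 5 in transition 1 (0 higher, 25%), 18 in hair follicle (0 higher, 37.4%), 47 in sebaceous (0 higher, 30.8%), 59 in melanocyte (0 higher, 52.5%) and 53 in T cells (2 higher, 30.3%). DESeq2 called 15 in transition 1 (0 higher, 29.5%), 7 in differentiated against transition 1 (1 higher, 30.2%), 2 in basal 2 (0 higher, 7.59%), 29 in hair follicle (0 higher, 40.8%), 34 in sebaceous (0 higher, 48.7%) and 48 in Langerhans (47 higher, 49.5%), and its size factors in edgeR gave 5 in differentiated against transition 1 (1 higher, 36%), 7 in hair follicle (0 higher, 37%) and 44 in Langerhans (44 higher, 49.5%). With no filter on low counts there were 23 in differentiated against transition 1 (2 higher, 24.3%), 1 in basal 2 (0 higher, 7.75%), 17 in hair follicle (0 higher, 26.3%), 59 in sebaceous (0 higher, 33.4%), 53 in melanocyte (0 higher, 36.2%) and 41 in T cells (2 higher, 23.9%). At resolution 1.2 there were 17 in transition 1 (0 higher, 41.1%), 3 in basal 2 (0 higher, 14.3%), 11 in hair follicle (0 higher, 40.5%) and 1 in sebaceous (0 higher, 40.7%), where the sebaceous name also covers a cluster of 527 cells led by Apoe and Prlr beside one of 245 cells. With the ribosomal protein genes among the variable genes there were 0 in transition 1 (0 higher, 26.7%) and 13 in hair follicle (0 higher, 38.9%), and without keratin, differentiation and mitochondrial genes 16 in hair follicle (0 higher, 37.2%) and 33 in sebaceous (0 higher, 48.7%).

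Named genes turned direction as follows, as log2 fold changes. In cells of 6000 to 15000 UMIs these were Rpl7l1 (−0.078), Rps27l (−0.12) and Rpl22l1 (−0.15) in differentiated against basal, Rplp1 (−0.055) and Rpl36al (−0.033) in differentiated against transition 1, and Rpl22l1 (0.068) and Rpl7l1 (0.45) in terminally differentiated KCs. With library size alone it was Rpl7l1 in terminally differentiated KCs (0.10). Scaled to the ribosomal protein UMIs, without and with the replicate block, these were Rpl22l1 (0.20 and 0.20) and Rpl36al (0.10 and 0.11) in proliferating KCs, Rpl22l1 (0.22 and 0.22) and Rpl36al (0.23 and 0.21) in Merkel cells, and Rpl22l1 (0.31 and 0.31) and Rps27l (0.33 and 0.34) in dermal cells. Rpl39l in T cells, with 4 UMIs in KO mouse 1 and 0 in KO mouse 2, had −0.23 without KO mouse 1 and 4.36 without KO mouse 2.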
